A study of Mus musculus with 15 samples.

Results

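The 8 vehicle-treated mice of a cecal RNA-seq experiment fell into 2 clusters of 4 by the level of Dbp, a transcription factor whose messenger RNA cycles over the day in most tissues. The clusters hold 8 of the 15 mice sequenced, and the 7 mice with antibiotic-induced microbiome depletion (AIMD) were not used. All 8 were wild-type (WT) C57BL/6 mice that received water by oral gavage 2 times a day for 30 days, the schedule on which the AIMD mice received antibiotics. The labels give an age of 20 weeks, which is older than the starting age in the study's methods plus these 30 days. Whole ceca were emptied and frozen, so the RNA is a mix of epithelium, muscle and the other cells of the wall, and poly-A RNA was sequenced as stranded libraries. The study's own statistical model accounted for when a mouse was killed, but the sample labels give no time for a mouse, and none was assigned here.

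The clusters were set by a threshold of 3 on Dbp FPKM (reads per unit of gene length and of library depth). Mice are named by their replicate number. Replicates 1 to 4, called the low-Dbp mice, had deposited Dbp values of 0.601, 0.527, 0.596 and 0.580. Replicates 5 to 8, the high-Dbp mice, had 7.17, 9.50, 5.18 and 13.7. The mice nearest to the threshold were therefore at 0.601 below it and at 5.18 above it. Arntl, the second gene used to describe the clusters, ran the other way, at 12.5 to 16.1 in the low-Dbp mice and 4.00 to 4.57 in the high-Dbp mice. The widest gap in Arntl falls between the same 2 clusters, which the choice of mice fixed, and Per2, also used to mark them, splits likewise. The widest gap in Nr1d1 set mouse 8 apart from the 7 others and that in Npas2 set mice 5 and 6 apart from the 6 others. Because expression itself defined the clusters, every difference in expression below is a description and carries no p-value. The clusters also coincide with the replicate numbers, so anything else that differed between mice 1 to 4 and mice 5 to 8 cannot be told apart from the difference in clock genes.

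In mammalian cells, ARNTL (BMAL1) pairs with CLOCK or NPAS2 and switches on genes with an E-box in their promoter, among them the Per and Cry genes, whose proteins then block ARNTL and CLOCK. The same pair drives the REV-ERB receptors Nr1d1 and Nr1d2, which silence Arntl, Npas2 and Nfil3 through ROR response elements. It also drives Dbp, Tef and Hlf, which act on D-boxes in competition with the repressor NFIL3. Arntl and Nfil3 thus peak at about the opposite time of day to Dbp, Per3 and the REV-ERB genes. In the gut, these clocks run in the epithelium and in the underlying muscle and nerve layers, and feeding time helps to set them.

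Some promoters of these genes hold the letters of the elements just named, and they are printed to show where each element lies next to a gene whose values did not overlap between the clusters, or, for Cry1, next to one whose values did. Matches also stand before other clock-related genes that did not follow. Sirt1 has 2 E-boxes and Leo1 a ROR response element, and their values overlapped (log2 differences 0.33 and -0.15), and Timeless has a D-box, as Per3 does, and was lower (difference -0.30). Promoters were available for 41 of 53 compared clock-related genes and genes with the largest differences, and most of the 41 held no match. No match was found for Dbp, Per2, Nr1d1, Nr1d2, Npas2 or Nfil3, whether for lack of the letters or of a promoter. Sequences are RefSeq promoters on GRCm38.p6, 5′ to 3′ on the gene's strand, and cover the 250 bases before a transcription start. Capitals mark the E-box CACGTG in Ciart, Per1, Tef (2 starts), Cipc and Cry1, and the D-box TTATGTAA in Per3.
Ciart (chr3:95882229-95882478, minus strand): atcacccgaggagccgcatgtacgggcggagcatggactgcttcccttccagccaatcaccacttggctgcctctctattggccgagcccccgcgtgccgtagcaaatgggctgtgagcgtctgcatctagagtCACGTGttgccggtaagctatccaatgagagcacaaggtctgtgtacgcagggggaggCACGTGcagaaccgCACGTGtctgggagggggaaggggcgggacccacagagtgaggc
Per1 (chr11:69098699-69098948, plus strand): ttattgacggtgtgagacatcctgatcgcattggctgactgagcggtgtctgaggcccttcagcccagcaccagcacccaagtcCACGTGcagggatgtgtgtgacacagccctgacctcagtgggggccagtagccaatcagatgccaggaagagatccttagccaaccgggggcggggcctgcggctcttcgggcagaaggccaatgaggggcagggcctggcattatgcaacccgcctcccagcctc
Tef (chr15:81802423-81802672, plus strand): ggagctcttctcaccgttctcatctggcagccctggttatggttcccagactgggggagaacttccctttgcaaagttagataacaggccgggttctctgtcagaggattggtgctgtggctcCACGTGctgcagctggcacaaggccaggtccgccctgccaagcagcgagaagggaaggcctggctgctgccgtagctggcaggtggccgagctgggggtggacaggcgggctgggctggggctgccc
Tef (chr15:81811164-81811413, plus strand): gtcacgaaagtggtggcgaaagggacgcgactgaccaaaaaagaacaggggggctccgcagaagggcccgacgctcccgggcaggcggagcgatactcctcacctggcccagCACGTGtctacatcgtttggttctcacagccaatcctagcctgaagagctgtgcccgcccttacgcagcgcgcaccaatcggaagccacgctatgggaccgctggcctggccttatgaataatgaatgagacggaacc
Cipc (chr12:86947093-86947342, plus strand): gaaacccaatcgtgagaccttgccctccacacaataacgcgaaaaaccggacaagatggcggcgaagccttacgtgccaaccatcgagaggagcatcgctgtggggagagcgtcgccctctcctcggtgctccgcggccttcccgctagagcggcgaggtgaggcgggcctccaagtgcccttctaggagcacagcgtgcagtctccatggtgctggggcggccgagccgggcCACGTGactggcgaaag
Cry1 (chr10:85185055-85185304, minus strand): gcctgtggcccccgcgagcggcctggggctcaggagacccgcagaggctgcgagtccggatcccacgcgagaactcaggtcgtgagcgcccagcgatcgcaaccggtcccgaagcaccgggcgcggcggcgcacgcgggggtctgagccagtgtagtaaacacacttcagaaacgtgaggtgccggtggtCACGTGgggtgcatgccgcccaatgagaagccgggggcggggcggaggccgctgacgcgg
Per3 (chr4:151044666-151044915, minus strand): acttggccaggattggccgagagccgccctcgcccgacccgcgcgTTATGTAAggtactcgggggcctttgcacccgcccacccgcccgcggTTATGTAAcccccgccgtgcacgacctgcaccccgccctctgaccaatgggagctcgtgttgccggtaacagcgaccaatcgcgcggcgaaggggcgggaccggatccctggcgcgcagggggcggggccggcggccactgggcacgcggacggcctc
The 3 E-boxes of Ciart stand at positions -116, -58 and -44 from its start, and the 2 D-boxes of Per3 at -205 and -158. For Arntl, the ROR response element (AA, any base, then TAGGTCA) lies 27 bases after 1 of its starts, and the 30 bases around it, chr7:113207528-113207557 on the plus strand, carry the match in capitals.
Arntl: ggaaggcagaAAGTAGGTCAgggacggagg

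The E-box was about as frequent among all the genes that differed in every mouse as among all genes compared. CACGTG was found on either strand in 9.87% of the 11236 promoters of 300 bases (250 before to 50 after the start) that belong to the genes compared, in 10.3% of promoters of genes higher in every high-Dbp mouse and in 10.1% of those lower in every one. For genes whose log2 difference also reached 1, the share was 15.3% of 131 promoters on the higher side (95% exact binomial interval 9.58 to 22.6) and 12.05% of 83 on the lower side (5.93 to 21.04). These promoters belong to 96 and 62 genes. The intervals count promoters of 1 gene as independent and can be too narrow. The higher side also includes Ciart, Per1, Tef and Cipc, clock genes whose place is tied to the choice of clusters. The D-box, as TTATGTAA or TTACGTAA, stood in 0.730% of all these promoters, the ROR response element in 0.187% and the cyclic AMP response element TGACGTCA in 3.12%. In the same order, they stood in 7, 0 and 23 of 786 promoters of genes higher in every high-Dbp mouse. Among genes lower in every one they stood in 6, 1 and 21 of 853. The D-box and ROR response element matches are too few to compare. A promoter without a match lacks only those letters in that window.

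Sequencing depth was lower on average in the high-Dbp mice, a difference that did not pass a test. The reads counted on genes, recovered from the FPKM values, were 7.93, 14.4, 7.53 and 9.61 M (mega) reads in mice 1 to 4 and 6.48, 9.73, 7.78 and 4.37 M in mice 5 to 8. The means were 9.87 ± 3.16 M (SD, n = 4) and 7.09 ± 2.25 M (SD, n = 4), with p = 0.229 in a two-sided exact permutation test whose smallest possible p is 0.0286. Mouse 8, the shallowest library, also stood apart in expression, and mouse 2 had 12.3% of its reads on Yam1 against 0.147 to 0.431% in the others. The mean distance between mice over the 500 most variable genes was 30.5 within the low-Dbp mice, 35.2 within the high-Dbp mice (29.5 without mouse 8) and 37.4 between the clusters. On the first principal component, with 39.0% of the variance, the low-Dbp mice lay between -15.6 and -3.44 and the high-Dbp mice between -1.92 and 32.4, mouse 8 being the highest.

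Of 12018 genes compared, 790 were higher in all 4 high-Dbp mice than in any low-Dbp mouse, which is 6.57% of the genes, and 915, or 7.61%, were lower in all 4. A gene of either kind is called separated below. The comparison took genes that reached an FPKM of 0.5 in 4 or more mice. Values are FPKM divided by a size factor for each library (0.996 to 1.04), and differences are high-Dbp minus low-Dbp means of log2(FPKM + 0.5), a scale that understates the change of low genes. The median difference over all genes was -0.03, and 90% of them lay between -0.72 and 0.72. Of the 12018 genes, 5640 had a difference above 0 and 6378 below 0, the background for each count of signs below. Genes of a list were measured in the same 8 mice and can vary together, so their signs are not independent. With a difference of at least 1 also required, 130 genes (1.08%) were separated and higher and 87 (0.724%) separated and lower, so that the higher side made up 59.9% of the separated genes instead of 46.3%. The 6.57% higher and 7.61% lower are the background for each count of separated genes below. Since the clusters were chosen on this same contrast, nothing is read from a count that lies above them.

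**Figure D1:**
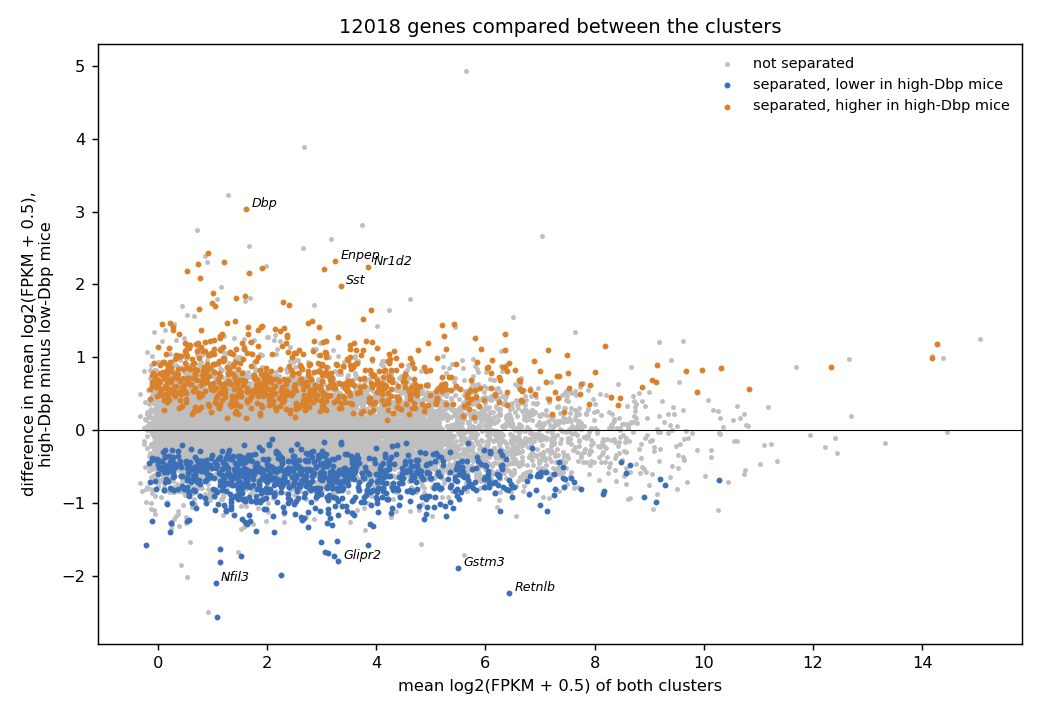
Difference between the clusters (y axis, high-Dbp minus low-Dbp mean of log2(FPKM + 0.5)) against the mean of both clusters (x axis) for the 12018 genes compared, with separated genes in colour. Dbp and Retnlb are labelled with 6 other named genes. The 790 orange and 915 blue points occur at low and high expression, and many genes with differences above 1 are grey because single mice overlap.

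Of 3 compared activators of the clock, Arntl and Npas2 were separated and lower in the high-Dbp mice, and Arntl was itself used to choose the clusters. Arntl (chromosome 7, 113207465 to 113314126, plus strand) had 15.01, 12.5, 15.8 and 14.7 FPKM in mice 1 to 4 and 3.99, 4.19, 4.56 and 3.95 in mice 5 to 8. This is 3.48 times as much in the low-Dbp mice, a log2 difference of -1.68 with a pooled SD within clusters of 0.12, and the 4 values of each cluster lay close together. Npas2, the partner that stands in for CLOCK, read 7.19, 7.36, 7.53 and 7.98 against 4.92, 5.16, 6.16 and 6.59, a difference of -0.38 (SD 0.14). Its clusters were separated by little, with mouse 1 lowest on one side and mouse 8 highest on the other. Clock overlapped fully, at 3.11, 3.44, 4.23 and 4.61 in the low-Dbp mice and 3.84, 4.27, 3.62 and 3.79 in the high-Dbp mice, a difference of 0.02. Arntl2 was below the level needed for comparison.

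Of the repressors, 5 of 6 were higher in every high-Dbp mouse (6.57% of all genes), among them Per2, a marker of the clusters. Per2 (chromosome 1, 91415982 to 91459324, minus strand) had 0.910, 0.668, 1.31 and 1.19 FPKM against 5.25, 5.04, 7.12 and 7.76, a mean 6.17 times as high and a log2 difference of 2.16 (SD 0.29). Per3 read 0.284, 0.192, 0.525 and 0.345 against 2.96, 2.69, 2.96 and 3.51, which is 9.01 times as high, with a difference of 2.09 (SD 0.19). The high-Dbp values of Per3, the gene with 2 D-boxes above, spanned a narrow range and the lowest of them was several times the highest low-Dbp value. Per1 was less abundant, at 0.364, 0.747, 0.636 and 0.827 against 2.06, 1.48, 1.65 and 2.51, a difference of 1.08 (SD 0.27). Ciart, which encodes the repressor CHRONO and carries the 3 E-boxes, had 0.0604, 0.228, 0.293 and 0.158 against 2.39, 3.63, 1.75 and 2.83. Its mean was 14.3 times as high and its difference 2.18 (SD 0.30), but the low values rest on as little as 1 read, and 11.9% of its 50-base windows also occur in transcripts of other genes.

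The cryptochromes, the Per proteins' partners in repression, differed from each other. Cry2 had 1.73, 1.34, 1.18 and 1.22 in the low-Dbp mice and 1.74, 2.63, 2.00 and 5.27 in the high-Dbp mice, a difference of 0.77 (SD 0.45). Mouse 1 and mouse 5 were almost level, and mouse 8 stood far above the rest. Cry1, with its E-box at -60, read 7.62, 8.66, 9.77 and 9.51 against 11.3, 7.47, 8.89 and 9.74 (difference 0.06, SD 0.20). Its clusters overlapped, with mouse 5 above and mouse 6 below every low-Dbp mouse. The median difference over the 6 repressors was 1.59, beside -0.03 over all genes.

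**Figure D2:**
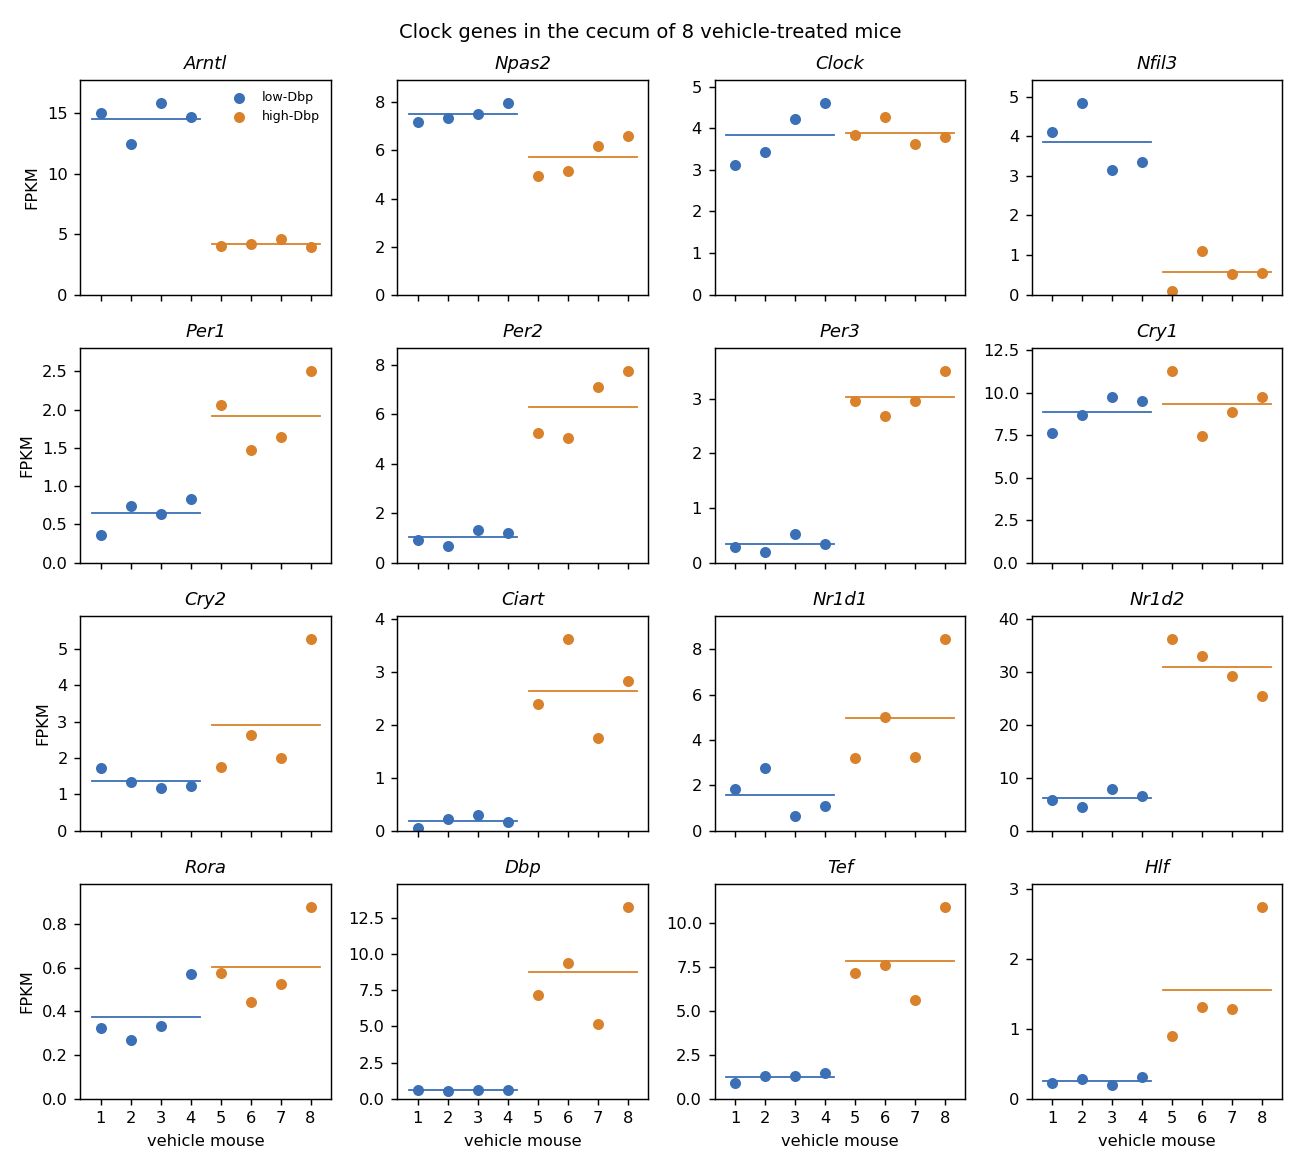
FPKM (y axis, from 0) of 16 clock genes in each of the 8 vehicle-treated mice (x axis), with points for mice and lines for cluster means. Arntl and Nfil3 are high in mice 1 to 4, Dbp, Tef and the Per genes are high in mice 5 to 8, and Clock, Cry1 and Rora overlap.

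The nuclear receptors that repress or activate Arntl were higher in the high-Dbp mice for 2 of 3 compared genes (6.57% of all genes). Nr1d2 (REV-ERBβ; chromosome 14, 18204054 to 18239127, minus strand) had 5.90, 4.51, 7.90 and 6.66 FPKM in the low-Dbp mice and 36.3, 32.97, 29.2 and 25.6 in the high-Dbp mice. In the high-Dbp mice it was the most abundant of these receptors per length, and its mean was 4.96 times as high (difference 2.24, SD 0.27). Nr1d1 (REV-ERBα) was lower and more variable, at 1.82, 2.76, 0.647 and 1.11 against 3.20, 5.03, 3.27 and 8.46, a difference of 1.41 (SD 0.63). Here mouse 2 came close to mouse 5, and mouse 8 stood far above the rest, which is why Nr1d1 alone would split the mice as 7 and 1. Rora, an activating receptor, at 0.324, 0.271, 0.335 and 0.569 against 0.577, 0.441, 0.524 and 0.878, was not separated (difference 0.33), and Rorb was too low to compare.

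Dbp, Tef and Hlf, the output factors that act on D-boxes, were higher in every high-Dbp mouse. After scaling, Dbp (chromosome 7, 45705088 to 45710203, plus strand) had 0.603, 0.53, 0.585 and 0.578 FPKM against 7.15, 9.42, 5.17 and 13.3, which is 15.3 times as high, but it defines the clusters. Tef, with an E-box before each of the 2 starts printed, had 0.886, 1.30, 1.32 and 1.46 against 7.13, 7.59, 5.63 and 10.9, 6.30 times as high (difference 2.23, SD 0.30). Hlf was low throughout, at 0.225, 0.276, 0.199 and 0.308 against 0.897, 1.31, 1.28 and 2.74, a difference of 1.38 (SD 0.37) resting on 10 to 83 reads a mouse. In all 3 genes mouse 8 had the highest value. Nfil3, their competitor, went the other way with 4.11, 4.84, 3.14 and 3.36 against 0.0954, 1.11, 0.53 and 0.545, and its mean was 6.81 times as high in the low-Dbp mice (difference -2.10, SD 0.45). The value of mouse 5 came from 1 read.

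Among 11 other clock-controlled genes, 4 were higher in every high-Dbp mouse and none lower (median 0.50; 6.57% of all genes were higher). Usp2, a deubiquitinase with strong daily rhythm in many tissues, had 7.53, 9.01, 6.51 and 9.07 FPKM against 22.6, 26.5, 28.2 and 26.9, a difference of 1.65 (SD 0.18). Tspan4, a tetraspanin, had 0.439, 0.440, 0.426 and 0.452 against 1.60, 1.22, 1.82 and 2.03 (difference 1.19, SD 0.17), with all low-Dbp values within a few hundredths of each other but only 7 to 26 reads a mouse. Bhlhe40 (DEC1), which competes for E-boxes, had 46.8, 37.5, 52.2 and 58.9 against 121, 82.7, 98.9 and 62.3, so that mouse 4 and mouse 8 were nearly level. Klf9 differed by 0.50 and was likewise barely separated, at 0.335, 0.904, 0.813 and 0.824 against 1.18, 0.948, 1.73 and 1.01. Tsc22d3 and Klf10 had differences of 0.57 and 0.74 without being separated, and Por of 0.22. Without mouse 8, a check added after the data were seen, 6 of the 11 were separated and higher and 1 lower. With 7 mice separation is easier. Of all compared genes 11.3% were then separated and higher and 11.3% separated and lower, which is the background for each such count without mouse 8. Size factors were computed again without mouse 8, so a gene that was barely separated can also drop out.

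Of 10 genes for proteins that modify or degrade clock proteins, 3 were separated and higher and 1 lower (median 0.33; all genes 6.57% and 7.61%). Cipc, an inhibitor of CLOCK with an E-box 17 bases before its start, had 17.3, 18.4, 22.7 and 21.5 FPKM against 44.1, 58.6, 41.4 and 41.9, a difference of 1.19 (SD 0.21). Csnk1e, a kinase that marks PER for degradation, had 2.13, 1.66, 2.59 and 2.15 against 6.40, 2.65, 2.95 and 4.44 (difference 0.75), while its relative Csnk1d, at 14.8, 21.7, 14.2 and 15.8 against 8.51, 13.5, 9.97 and 24.6, overlapped (difference -0.32). Fbxw11 differed by 0.33 and Timeless, better known in mammals for replication forks, by -0.30. Without mouse 8, 4 of these 10 were separated and higher and 2 lower.

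Of 24 compared cell division genes of the G2 and M phases, 14 were separated and lower in the high-Dbp mice, where 7.61% of all genes were. All 24 had a difference below 0, as did 6378 of all 12018 genes, and the median was -0.69. Ube2c, which drives the anaphase-promoting complex, had 16.5, 13.8, 9.49 and 12.5 FPKM in mice 1 to 4 and 5.43, 5.46, 4.27 and 4.92 in mice 5 to 8, 2.61 times as much in the low-Dbp mice (difference -1.28, SD 0.25). Tpx2, a spindle assembly factor, had 6.28, 5.03, 4.54 and 5.19 against 2.15, 2.39, 1.59 and 2.78 (difference -1.09, SD 0.23). Cdk1, the mitotic kinase, had 17.3, 12.95, 11.7 and 11.9 against 8.42, 7.58, 5.61 and 4.93 (difference -0.98, SD 0.30). In these 3 genes the lowest of the low-Dbp mice was mouse 3, and it remained above every high-Dbp mouse. The other separated members, Aurka, Nek2, Plk1, Prc1, Top2a, Kif20a, Ccna2, Mki67, Kif11, Bub1 and Cenpf, had differences between -0.99 and -0.41. Top2a, which untangles DNA, read 4.64, 5.42, 4.72 and 5.23 against 3.41, 2.20, 2.40 and 2.33, and Mki67, a marker of cycling cells, 4.77, 4.61, 4.23 and 6.77 against 3.18, 3.12, 2.78 and 2.94. Without mouse 8, 16 of the 24 were separated and the median was -0.59. In whole tissue, fewer dividing cells and less RNA in each of them cannot be told apart.

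The genes of the G1/S transition and of DNA replication overlapped for the most part, with 4 of 24 separated and lower (7.61% of all genes), none higher, and a median of -0.21. Mcm6 and Mcm7, subunits of the replicative helicase, differed by -0.32 and -0.53, Fen1, a nuclease of the lagging strand, by -0.49, and Uhrf1, which maintains DNA methylation, by -0.39. Without mouse 8, 6 of the 24 were lower and 1 higher. E2f2, a transcription factor of the G1/S transition, had one of the 12 largest negative differences, with 6.27, 8.25, 5.62 and 6.35 FPKM against 2.06, 2.34, 2.37 and 1.94 (difference -1.40, SD 0.17). None of the 10 compared stem cell and Wnt target genes was separated (median -0.14). Sox9 and Myb differed by -0.26 and -0.43 with overlapping values, and Lgr5, Olfm4 and Axin2 were too low to compare. Of 37 nuclear genes of the respiratory chain, 9 were separated and lower and none higher (7.61% and 6.57% of all genes). The other 28 were not separated, and the list had 5 differences above 0 and a median of -0.34. Without mouse 8, 8 were lower and 1 higher, and the median was -0.14. Sdhb, of complex II, had 128, 135, 96.4 and 85.6 FPKM against 68.8, 67.1, 59.4 and 54.6 (difference -0.81), and Atp5b, of the ATP synthase, 227, 308, 209 and 226 against 166, 168, 146 and 127 (difference -0.67). Among 29 cytosolic ribosomal protein genes, 5 were separated and lower and none higher (7.61% and 6.57% of all genes), with a median of -0.38, but these genes share reads with pseudogenes (42.98% of the windows of Rps2).

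The 7 genes of the mitochondrial chromosome that could be compared all lay higher on average in the high-Dbp mice (median 0.99), and none was separated. Of the 13 listed, mt-Nd3, mt-Nd4l, mt-Atp6 and mt-Atp8 were given as 0 in all 8 mice, and mt-Co2 and mt-Co3 were too low to compare. The share of reads on genes of that chromosome therefore covers only part of it. This share was 16.2, 6.92, 15.3 and 9.44% of the reads on genes in mice 1 to 4. It was 26.2, 15.4, 25.8 and 19.6% in mice 5 to 8, so that mouse 1 lay above mouse 6. mt-Co1, a subunit of cytochrome oxidase, had 39993, 10653, 32693 and 17755 FPKM against 73487, 34159, 74731 and 41862. The mean log2 level of the nuclear respiratory chain genes was 8.06, 7.78, 7.67 and 7.48 in mice 1 to 4. It was 7.68, 7.54, 7.55 and 6.79 in mice 5 to 8. Between the clusters this mean was lower on average where the mitochondrial share was higher. Within each cluster, the mouse with the highest share (mouse 1 and mouse 5) also had the highest mean. The part of this share in the differences of the nuclear gene lists was not tested.

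**Figure D3:**
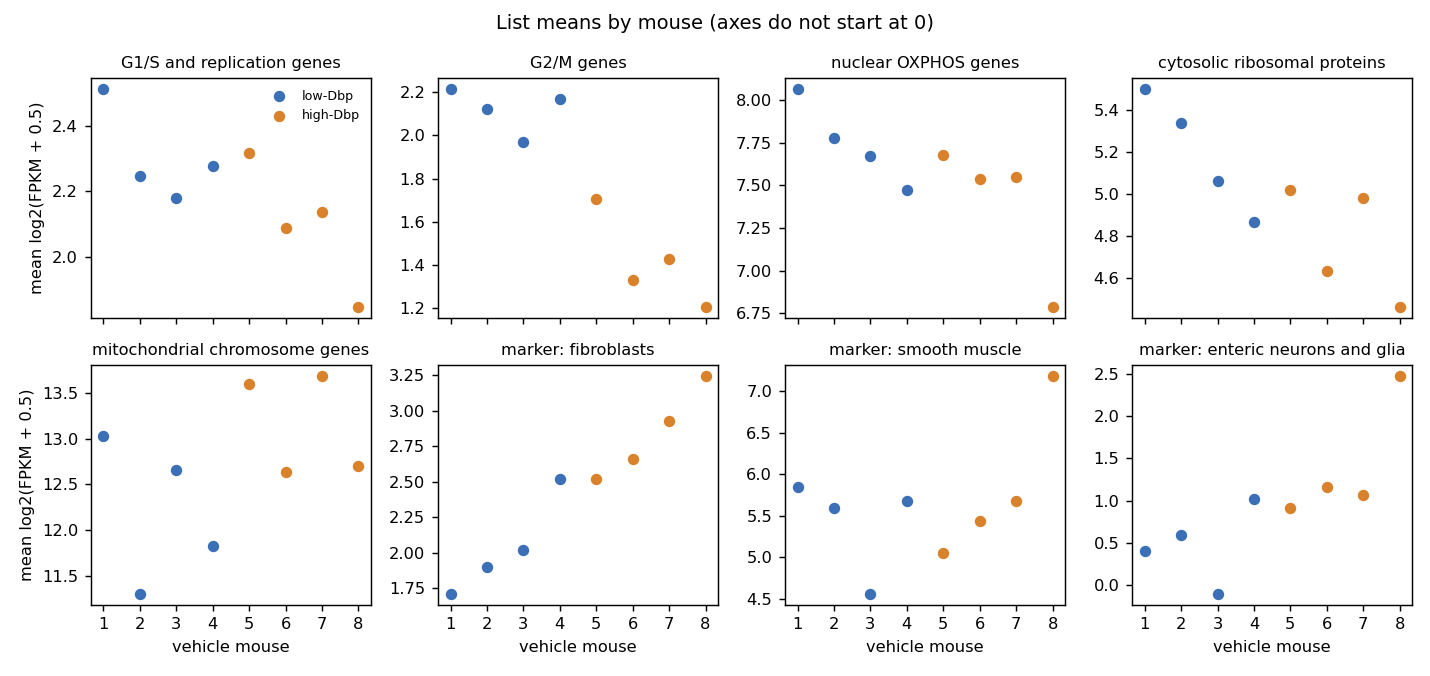
Mean log2(FPKM + 0.5) over the compared genes of 8 lists (y axis, not from 0) in each mouse (x axis). The G2/M mean is 1.97 to 2.21 in the low-Dbp mice and 1.21 to 1.71 in the high-Dbp mice, while the other 7 lists overlap or nearly touch and mouse 8 is the extreme value in 6 of them.

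Epithelial markers had the highest summed FPKM of the marker lists in both clusters, at 25771 to 31063 in the low-Dbp mice and 22901 to 32512 in the high-Dbp mice. The lists differ in length and in the genes chosen, so these sums do not give the shares of cell types. Markers of the other layers of the wall were higher on average in the high-Dbp mice, mouse 8 above all. Epcam, on all epithelial cells, had 1782, 1367, 1605 and 1383 FPKM against 1767, 1809, 1597 and 1656, and of 13 epithelial markers 2 were separated and higher and 2 lower (median 0.16; all genes 6.57% and 7.61%). Krt20, a keratin of mature surface cells, had 1042, 957, 875 and 936 against 1396, 1814, 1489.5 and 2289 (difference 0.85, SD 0.24). Cdh17, an intestinal cadherin, differed by 0.35. The intestinal identity factors Cdx1 and Cdx2 differed by -0.68 and -0.51, Cdx2 at 213, 221, 203 and 175 against 143, 146, 137 and 143. None of 8 goblet cell markers was separated (median -0.30).

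All 7 fibroblast markers had a difference above 0 and 2 were separated (median 0.62; 6.57% of all genes were higher). Dcn, a matrix proteoglycan, had 14.4, 18.7, 24.2 and 34.7 FPKM against 62.98, 40.5, 76.04 and 68.2 (difference 1.45, SD 0.47), and Lum, its relative, 3.09, 2.06, 3.83 and 6.22 against 10.4, 7.45, 9.61 and 17.4 (difference 1.47, SD 0.54). The summed FPKM of the 7 was 28.4 to 61.6 in the low-Dbp mice and 70.5 to 117 in the high-Dbp mice. The 9 smooth muscle markers had a median of 0.36 with none separated, and their sums were 529.6 to 1424 in the low-Dbp mice and 907 to 3055 in the high-Dbp mice. For neurons and glia the sums were 4.38 to 17.7 in the low-Dbp mice and 14.9 to 68.6 in the high-Dbp mice. Without mouse 8 the smooth muscle median was -0.08, so 1 mouse set its sign. Of 8 markers of enteric neurons and glia, all lay above 0, as did 5640 of all 12018 genes. Of these 8, 2 were separated and higher (6.57% of all genes), and the median was 1.02 (0.56 without mouse 8). Elavl4, a neuronal RNA-binding protein, had 0.228, 0.466, 0.246 and 0.632 against 0.718, 0.970, 0.876 and 3.69, and S100b, of glia, 1.01, 1.34, 0.357 and 1.69 against 2.08, 1.94, 2.46 and 5.35 from 4 to 36 reads. The part of these layers in the other differences was not tested.

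Markers of blood, fat and immune cells mostly overlapped. None of the 6 T cell markers, 9 B and plasma cell markers, 4 fat cell markers and 5 red blood cell markers compared was separated, with medians of 0.03, 0.09, -0.59 and -0.15. Of 8 markers of macrophages and dendritic cells only Adgre1 (F4/80) was separated, at 0.337, 0.250, 0.572 and 0.469 FPKM against 1.01, 0.657, 1.69 and 1.09, and of 3 endothelial markers only Kdr, the main VEGF receptor, at 0.772, 0.817, 0.969 and 1.30 against 1.76, 1.70, 2.21 and 1.52. Sh2d6 was the 1 tuft cell marker high enough to compare (difference 0.23). Pancreatic Cela2a, Ctrb1, Pnlip, Try4 and Amy2a5 were listed at 0 in all 8 mice, and Cela1, the 1 pancreatic marker compared, differed by -0.54. Interferon-induced genes lay above 0 in 14 of 15 cases (median 0.64), 2 being separated and higher, as were 6.57% of all genes. Oas3, an RNA sensor, had 1.57, 1.68, 1.41 and 1.47 against 2.52, 4.53, 2.50 and 7.77, and Rsad2 (viperin) 1.61, 1.24, 1.75 and 1.20 against 2.23, 1.87, 4.15 and 2.24. Without mouse 8, 6 of the 15 were separated and higher, and so were 2 of the macrophage and dendritic cell markers and 2 of the 3 endothelial markers.

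Of 22 transporters 4 were separated and higher and none lower (6.57% and 7.61% of all genes), with a median of 0.51, and the other 18 overlapped. Slc2a5, the fructose transporter, had 0.964, 0.715, 0.741 and 0.685 FPKM against 2.78, 2.82, 2.46 and 1.88 (difference 1.22, SD 0.19). Slc2a1, a glucose transporter, had 45.9, 40.2, 51.4 and 36.97 against 59.9, 74.5, 60.6 and 60.1, while Aqp8, a water channel, and Atp1b1, of the sodium pump, differed by 0.52 and 0.44. Slc15a1 (PEPT1), which takes up di- and tripeptides, had the largest difference of the list, 2.53, and was not separated. Its values were 0.612, 0.874, 0.679 and 1.18 in the low-Dbp mice and 10.6, 1.16, 9.31 and 17.9 in the high-Dbp mice, so that mouse 6 alone sat at the level of the low-Dbp mice. Enpep, the brush border peptidase that removes acidic residues from the end of peptides, had 3.25, 3.64, 4.57 and 3.58 against 24.7, 9.72, 24.9 and 29.7 (difference 2.32, SD 0.52), again with mouse 6 the lowest of its cluster. Without mouse 8, 7 of the 22 transporters were separated and higher.

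Among 11 enteroendocrine genes 2 were separated and higher, beside 6.57% of all genes. The median was 0.13, and it was -0.047 without mouse 4 and 0.34 without mouse 8. Sst, which encodes somatostatin, had 5.25, 7.63, 2.21 and 4.93 FPKM against 13.9, 20.8, 12.2 and 42.7, a mean 4.48 times as high (difference 1.98, SD 0.73, 10 to 117 reads). Tac1, the precursor of substance P, had 2.09, 3.19, 0.546 and 4.43 against 7.05, 7.84, 4.84 and 18.6 (difference 1.76, SD 0.88). Grp, gastrin-releasing peptide, which is not on that list, had 0.774, 1.81, 0.250 and 2.45 against 2.92, 3.52, 3.31 and 20.2 (difference 1.84, SD 1.08). In these 3 genes mouse 3 had the lowest and mouse 8 the highest value, as in the mean of the neuron and glia markers. Both endocrine cells and enteric neurons can make such peptides, and the part of nerve RNA in these 3 genes was not tested. Gcg, which encodes the precursor of GLP-1, and Pyy overlapped, with differences of 0.11 and 0.13, and mouse 8 was the lowest of all 8 mice for both. Without mouse 8, 4 of the 11 were separated and higher.

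Of 22 genes of cholesterol synthesis and uptake 4 were separated and higher and 1 lower (median 0.19; all genes 6.57% and 7.61%), and 17 were not separated. Hmgcs1, which makes HMG-CoA for the sterol pathway, had 44.2, 67.9, 58.8 and 67.4 FPKM against 109.7, 111, 98.6 and 109 (difference 0.86, SD 0.21), with the 4 high-Dbp mice within a narrow band. Sqle, squalene epoxidase, had 10.5, 15.2, 11.9 and 12.6 against 20.7, 20.2, 18.5 and 20.6 (difference 0.66, SD 0.16). Msmo1 and Idi1 differed by 0.54 and 0.47. Dhcr7, at the end of the pathway, differed by -0.46 but was barely separated, at 28.14 in mouse 4 against 28.10 in mouse 6. Without mouse 8, 6 of the 22 were separated and higher and 0 lower. Of 14 genes of fatty acid synthesis only Me1, malic enzyme, was separated (0.91), a share near the 6.57% of all genes, and 22.9% of its windows are shared with other transcripts.

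Of 22 PPARα targets 3 were separated and lower and none higher (median -0.14; all genes 7.61% and 6.57%), and 19 were not separated. Acot1, an acyl-CoA thioesterase, had 24.2, 13.7, 11.3 and 13.7 FPKM against 3.97, 5.06, 4.49 and 3.82 (difference -1.69, SD 0.35), though 19.2% of its windows occur elsewhere. Hadha and Acaa2, of β-oxidation, differed by -0.74 and -0.60. Without mouse 8, 5 of the 22 were separated and lower and 2 higher. In glycolysis only Pfkl, liver-type phosphofructokinase, was separated and lower among 17 genes, near the 7.61% of all genes, at 42.7, 60.00, 31.1 and 29.6 against 16.4, 25.4, 13.5 and 22.04 (difference -1.04), and 4 were separated and lower without mouse 8. Of 17 genes of detoxification 3 were separated and higher and 2 lower (all genes 6.57% and 7.61%). Aldh1a1, Cyp3a13 and Abcb1a differed by 0.69, 0.63 and 0.55, Gstm1, a glutathione transferase, by -1.12 and Ces1d, a carboxylesterase, by -0.92. Gstm3, of the same family as Gstm1, had 88.4, 107, 71.1 and 84.2 against 21.5, 36.6, 21.6 and 16.2 (difference -1.90, SD 0.38), with 28.8% of its windows shared.

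**Figure D4:**
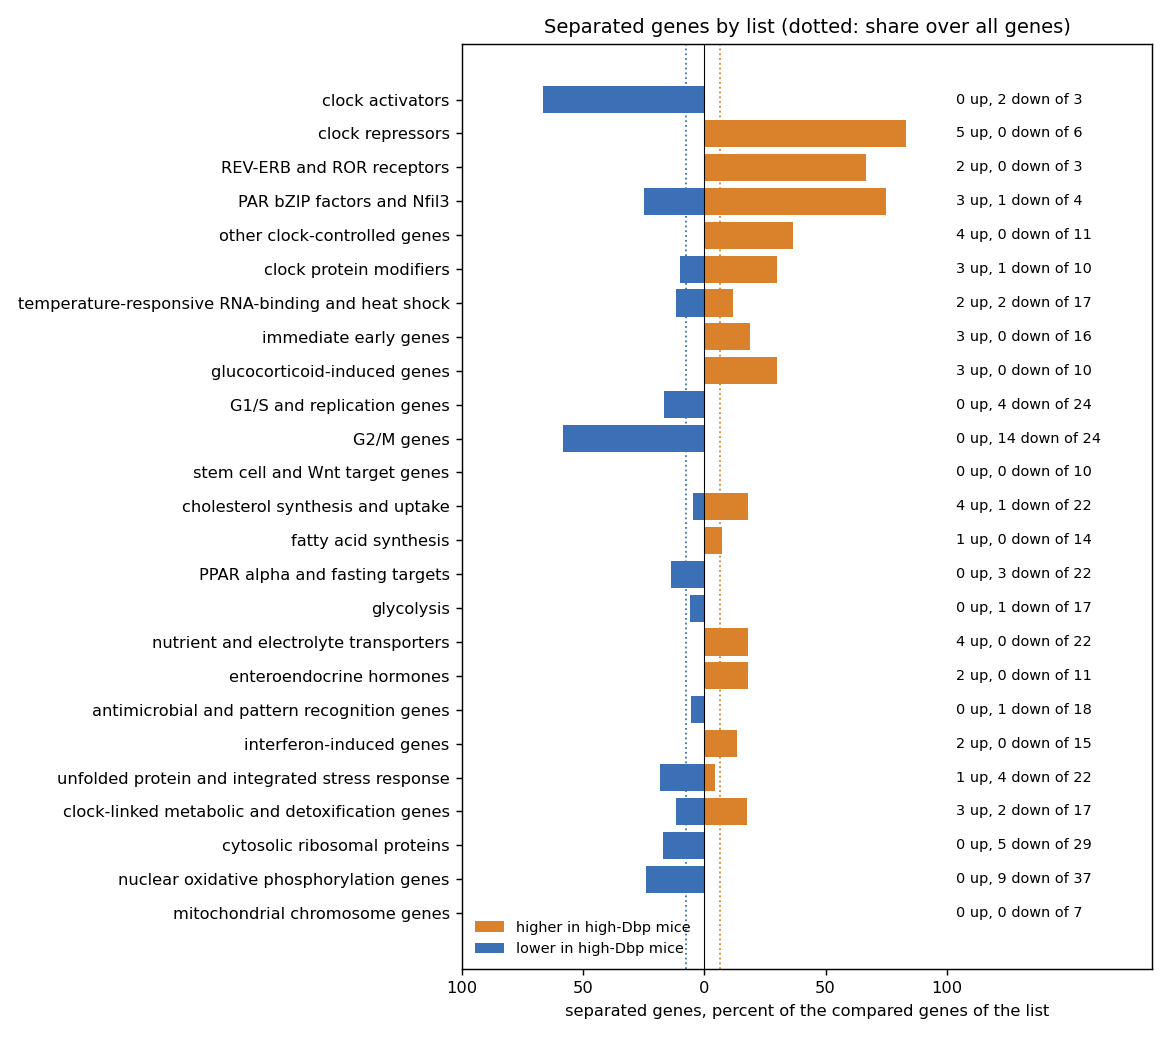
Separated genes of 25 lists as a percent of the genes compared in each list (x axis; orange higher, blue lower in the high-Dbp mice), with the share over all genes as dotted lines at 6.57% and 7.61%. Counts are printed at the right, such as 14 of 24 lower for the G2/M genes and 3 of 22 lower for the PPARα targets, and the clock lists hold genes that were used to choose the clusters.

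Of 22 genes of the unfolded protein response 1 was separated and higher and 4 were lower (median -0.01; all genes 6.57% and 7.61%), or 3 and 3 without mouse 8. Herpud1, which serves the degradation of misfolded proteins, had 56.6, 44.4, 52.9 and 51.98 FPKM against 169, 105, 161 and 95.7 (difference 1.32, SD 0.31). The endoplasmic reticulum chaperones and cofactors Sdf2l1, Hyou1, Calr and Dnajb11 differed by -0.72, -0.69, -0.63 and -0.28. Among 17 heat shock and temperature-responsive genes 2 were separated and higher and 2 lower, beside the same shares of all genes. Hspa1b and Bag3 were higher by 0.86 and 0.49 on the log2 scale, Hsp90ab1 and Hspd1 differed by -0.60 and -0.60, and the cold-induced Cirbp and Rbm3 overlapped. Hspa1b shares 62.3% of its windows with its twin Hspa1a and other transcripts. Of 16 immediate early genes Junb, Zfp36 and Klf4 were separated and higher, by 0.83, 0.67 and 0.52, beside 6.57% of all genes. Of 10 glucocorticoid-induced genes 3 were separated and higher, namely Sgk1, Ddit4 and Per1, which is also a clock gene, and 2 of the 10 without mouse 8. Ddit4 was barely separated, at 7.48 in mouse 3 against 7.57 in mouse 5. Sgk1, a kinase that activates sodium channels, had 90.6, 80.6, 129 and 91.8 against 294, 132, 345 and 137 (difference 1.10, SD 0.55), with mice 5 and 7 far above mice 6 and 8.

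Of 18 antimicrobial genes only Retnlb was separated, and lower, beside 7.61% of all genes. Retnlb (RELMβ), a goblet cell protein against bacteria, had 226, 259, 69.7 and 297 FPKM against 55.6, 60.2, 55.2 and 12.7, 4.64 times as much in the low-Dbp mice (difference -2.23, SD 1.01). Mouse 3 was close to the high-Dbp mice and mouse 8 was far below all others. Without mouse 8, 3 of the 18 were separated and lower and 1 higher. The 8 goblet cell markers had overlapping values, as given above. Reg3b, a lectin that binds bacteria, had a difference of 2.67, larger than that of Retnlb, and was not separated. Its values were 32.8, 99.3, 4.19 and 473 against 1022, 33.4, 928 and 371, a range of more than 2 orders of magnitude in which mouse 4 was high and mouse 6 low for its cluster. Reg3g was high and low in the same mice, at 5.95, 18.6, 2.63 and 75.8 against 109, 5.25, 112 and 61.4.

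Clock genes made up 6 of the 12 separated genes with the largest positive differences and 2 of the 12 with the largest negative ones. Dbp, Arntl and Per2 are among these 8, and the choice of clusters fixed their place. Nr1d2, Tef, Ciart, Per3 and Nfil3 are tied to the same clock loop, so their place was not independent of that choice either. Nothing is read from these counts, and the share of clock genes among all separated genes was not counted. The 24 were taken from separated genes whose mean FPKM reached 1 in the higher cluster and whose symbols are not predicted-gene numbers, 719 higher and 818 lower. Dbp, Nr1d2, Tef, Ciart, Per2 and Per3 were those 6 on the higher side, and Enpep, Sst and Grp are described above. Gdf10, a TGF-β family ligand, had 0.327, 0.588, 0.476 and 0.893 FPKM against 4.16, 2.08, 2.25 and 6.25 (difference 1.88, SD 0.52). Tm4sf4, a membrane protein of epithelia, had 0.731, 1.48, 0.355 and 1.50 against 5.43, 2.21, 4.38 and 7.67 (difference 1.82), and Ctla2a, a cysteine protease inhibitor, 1.39, 5.75, 1.64 and 8.02 against 13.5, 10.7, 20.7 and 29.3 (difference 2.21). These 3 rested on 4 to 187 reads a mouse, and 25.5% of the windows of Ctla2a occur in other transcripts.

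Arntl and Nfil3 were on the lower side, beside Retnlb, Gstm3, Acot1 and E2f2. Glipr2, a Golgi-associated protein, had 22.6, 16.9, 18.2 and 14.7 FPKM against 4.25, 5.98, 4.99 and 4.09 (difference -1.80, SD 0.24), with no value of either cluster near those of the other. Prkg2, the cyclic GMP-dependent kinase that controls chloride secretion in the gut, had 26.2, 22.3, 23.1 and 26.1 against 11.6, 8.02, 7.26 and 5.38 (difference -1.59, SD 0.31). Cldn8, a claudin of tight junctions, had 4.18, 5.29, 2.42 and 3.12 against 1.72, 0.407, 1.36 and 0, with no read in mouse 8 (difference -1.81). Cd320, the receptor for transcobalamin, and Tmem252 differed by -1.52 and -1.54, and the small nucleolar RNA Snora57 by -1.73 on at most 13 reads, with 0 in mouse 8.

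**Figure D5:**
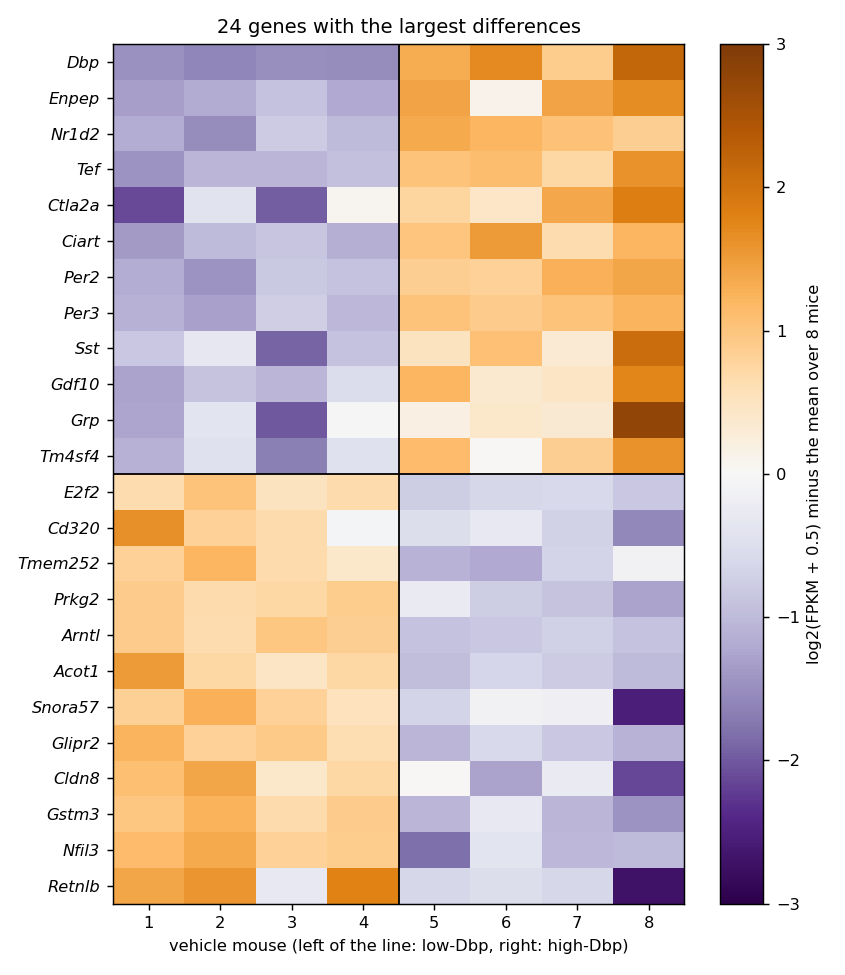
Level of the 24 genes in each mouse, as log2(FPKM + 0.5) minus the gene's mean over the 8 mice (colour), with mice in columns and genes in rows. Mice 1 to 4 and mice 5 to 8 form opposite blocks, mouse 6 is palest among the high-Dbp mice for Enpep and Tm4sf4, and mouse 8 is darkest for Grp, Cldn8, Snora57 and Retnlb.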

How the data were processed

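Poly-A RNA of emptied ceca was sequenced. STAR (alignment to GRCm38) and featureCounts (counts over GENCODE genes) were the authors' tools, per the labels and the study's methods, and the authors deposited 1 column of FPKM per mouse with gene symbols. The strand setting of the counting and the step from counts to FPKM are not given in the sources used here. The table has 45808 rows, of which 4 with a repeated symbol were left out and 27 carry a symbol that a spreadsheet turned into a date. AIMD mice were not used. The authors' own tests used DESeq2.

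Low FPKM values are whole multiples of the worth of 1 read. Dividing by it gave whole reads, within 0.05, with the GENCODE M21 length for 67.7% of genes above 0 and with another length for 32.3%. That other length was the smallest that gave whole reads in all 8 mice, so the reads of those genes are lower bounds. The read numbers given for single genes do not show which length was used. These reads give the depth and cover counting error only. Size factors by the median of ratios came from the 13898 genes above 0 in all 8 mice; each FPKM was divided by its library's factor, and a pseudocount of 0.5 was added before log2. A count test was not run, because the clusters were chosen from expression of these libraries. Only depth was tested, by exact permutation. Steps were tested on simulated data.

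The clusters, the 38 gene lists (545 genes, 468 compared) and the promoters were chosen with earlier results of these data known, and some genes are not reported here and were left out of the lists. Named are members of the lists and the 12 largest differences in each direction by the rule given above. Gene positions come from GENCODE M21 (GRCm38), and promoters (RefSeq, GRCm38.p6) matched 8826 of the genes by symbol. Shared reads were judged from 50-base windows that occur in transcripts of other genes. Alternatives were other pseudocounts, scalings and filters, a minimum difference, other genes to split the mice, and each mouse left out in turn. The software was scipy 1.17.1, pandas 2.3.3, numpy 2.4.6 and matplotlib 3.10.9 under Python 3.11.15.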

Additional observations from a re-analysis of the deposited data

Results flagged for a closer look

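In 16 of 186 groups of 4 or 8 values checked (8.60%), 1 mouse lay farther from the rest than Dixon's 95% critical value allows. A rate of about 1 in 20 by chance holds for independent normal values. These groups reuse the same 8 mice and some of the same genes, so an excess over that rate cannot be measured here. Mouse 8 accounted for 6 of the 16.

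In mouse 8, Grp FPKM was 20.2 (2.92 to 3.52 in the other high-Dbp mice) and Retnlb FPKM was 12.7 (55.2 to 60.2). Means of log2(FPKM + 0.5) over a list were apart in mouse 8 for the clock repressors (2.38, others 1.92 to 1.99), fatty acid synthesis (3.03, others 2.66 to 2.70), nuclear respiratory chain genes (6.79, others 7.54 to 7.68) and markers of enteric neurons and glia (2.47, others 0.910 to 1.16). This mouse also had the fewest reads, 4.37 M. The part of its depth and of its muscle and nerve RNA in these values was not tested.

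Among the other high-Dbp mice, Cipc was 58.6 FPKM in mouse 6 (others 41.4 to 44.1) and Mthfd1l, a mitochondrial folate enzyme, 1.72 in mouse 7 (others 2.52 to 2.69). The mean of the antimicrobial list was 3.67 in mouse 6 (others 4.43 to 4.53), and that of the glucocorticoid list was 4.83 in mouse 5 against a very narrow 4.86 in the others. Among the low-Dbp mice, Por, the electron donor of cytochromes P450, was 17.4 FPKM in mouse 4 (others 35.6 to 36.3), Klf9 was 0.335 in mouse 1 (others 0.813 to 0.904), and the detoxification list had a mean of 5.14 in mouse 2 (others 5.03 to 5.04). The cholesterol list had a mean of 4.00 in mouse 2 (others 3.55 to 3.63), and the REV-ERB and ROR receptors had a mean of 1.00 in mouse 3 (others 1.20 to 1.22). Yam1 took 12.3% of the reads on genes in mouse 2, against 0.147 to 0.431% in the other 7 mice.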

How the results depend on the processing

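No paired analysis was possible because the clusters compared share no replicate number and the differences come from no test. The count of separated genes was within 1.5 times the values of 790 and 915 under other pseudocounts, scalings and filters and with a minimum difference of 0.5, and fell to 130 and 87 with a minimum of 1. Leaving out each mouse in turn gave 871 to 1353 higher genes (most without mouse 8) and 1012 to 1554 lower genes (most without mouse 4; 1383 without mouse 6). Fewer mice make separation easier by construction. The split itself placed 7 mice below the widest gap for Nr1d1 and 2 for Npas2.

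Of 530 list medians under the alternatives 29 moved by more than the spread between mice. With a pseudocount of 0.1 the medians were 2.00 for clock repressors, 1.66 for REV-ERB and ROR receptors, 2.34 for the PAR bZIP factors with Nfil3 and 0.76 for interferon-induced genes, and with a pseudocount of 1 they were 1.21 for repressors, 1.20 for the receptors, 1.47 for the PAR bZIP factors, 0.37 for other clock-controlled genes and 0.48 for interferon-induced genes. With an FPKM of 0.1 as the filter they were -0.18 for activators, 0.028 for stem cell genes, 0.49 for interferon-induced genes and 0.13 for endothelium. With an FPKM of at least 1 in all 8 mice, which drops low clock genes, they were 0.42 for repressors, 2.24 for the receptors, -0.17 for macrophages, 0.023 for endothelium and 0.51 for fat cells. With each mouse left out they ranged from 1.14 to 1.66 for the receptors, 0.39 to 0.58 for other clock-controlled genes, 0.19 to 0.39 for clock protein modifiers, 0.17 to 0.34 for glucocorticoid-induced genes, 0.43 to 0.69 for interferon-induced genes, -0.16 to -0.043 for stem cell genes, -0.12 to 0.038 for detoxification genes and 0.35 to 0.71 for endothelium. Leaving out 1 mouse changed the sign of the median for the heat shock, fatty acid synthesis, detoxification, enteroendocrine and unfolded protein lists and for the smooth muscle, T cell, B cell and red blood cell markers. Apart from the filters, the cause of these shifts was not tested.

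For genes separated by at least 1, the E-box share on the higher side was 15.3%. On the lower side the D-box share was 0%, that of the ROR response element 1.20% and that of TGACGTCA 0% of 83 promoters. A count of 0 allows up to 4.35% if promoters of 1 gene are counted as independent. Of 6637 values of single genes 33 moved and none of the separated genes changed sign. Depth limits the low genes most, since several clock values rest on fewer than 20 reads.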
